A study of Drosophila melanogaster with 23 samples.

Results

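The transcripts described here lie above a set level in every control replicate and below a lower level in every *Myb* mutant replicate of *Drosophila* wing discs. They were chosen from the deposited expression table by level alone. The signal had to be at least 500 units in all 3 *yw* control replicates and under 250 units in all 3 *Myb* mutant replicates. Of 21051 transcripts in the table, 43 met both levels. Of 4 transcripts set aside by identifier, 3 met them (*PPO1*, *PPO2* and *AlkB*) and *Poc1* did not, so 40 transcripts of 35 genes remained. Because these levels are the contrast between the genotypes, the differences of the 40 are a description and carry no test. The same holds for the 3 set aside that met the levels.

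RNA came from wing imaginal discs, the larval epithelia that form the adult wing and thorax, of male late 3rd instar larvae kept at 25°C. Mutant males carried *Myb* MH107 on their single X chromosome, a null allele made by moving a P element with Delta2-3 transposase. The deletion takes the 5′ end of *Myb* and the neighbouring gene *AlkB*, the chromosome also carries w1118, and the males die as early pupae. Controls were males of the yellow-bodied, white-eyed yw67 stock, the y1 w67c23 line into which the mutation had been repeatedly outcrossed. Mutant larvae were picked by the absence of a GFP-marked balancer chromosome, so the deletion was present in all tissues of the larva and not in the disc alone. Each genotype had 3 biological replicates, measured on 12 mutant and 11 control arrays. Nothing in the labels says how many larvae made up a replicate, so the spread between replicates may be partly technical.

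Myb is a transcription factor that binds DNA, and flies have a single gene of this family. It is a subunit of the dREAM complex, which binds many promoters and either activates or represses them, and Myb is best known for driving genes of the G2 and M phases of the cell cycle. A wing disc is mostly epithelium, and it also carries myoblasts, an attached branch of the tracheal (airway) system and blood cells that stick to it. Larval blood holds plasmatocytes, which engulf debris and lay down matrix, crystal cells, which carry the enzymes of melanin formation, and lamellocytes, which appear on wounding or infection.

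Signals are RMA values in linear units, 1 value per transcript and array, averaged over the arrays of each biological replicate as geometric means. Log2 differences are mutant minus control, and SDs are over the 3 biological replicates of a genotype on the log2 scale. The transcript of the targeted gene, *Myb* (FBtr0074169), measured 4586, 4929 and 4717 in mutant replicates 1 to 3 and 15216, 15119 and 16233 in the controls. It fell by 1.71 on the log2 scale (SE 0.06, limma adjusted p = 3.54e-05) and stayed well above the mutant level that defines the 40. Which part of *Myb* its probes cover was not analysed here. *AlkB* (FBtr0074168), which the deletion also takes, measured 48.3, 50.9 and 46.6 against 608, 758 and 643. Both genes went the way their labels state.

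Over the 40 transcripts the median log2 difference was -2.84, with a range from -4.85 to -1.50. Across all 16637 tested transcripts it was -0.01. As a fold, the control exceeded the mutant by a median of 7.17 and by 2.83 to 28.9. The fold was over 10 in 7 transcripts, over 5 to 10 in 20 and 2 to 5 in 13. The mean mutant signal ran from 78.8 to 234 units. In 6 transcripts it was under 100, and a fold against so dim a signal depends on the background correction. The replicates of the genotypes cannot overlap under this rule, and among all tested transcripts 14.5% had 3 mutant replicates all below the 3 controls. With the genotypes exchanged the same levels picked 53 transcripts (0.319% of those tested), against 43 (0.258%) in the direction described here.

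**Figure D1:**
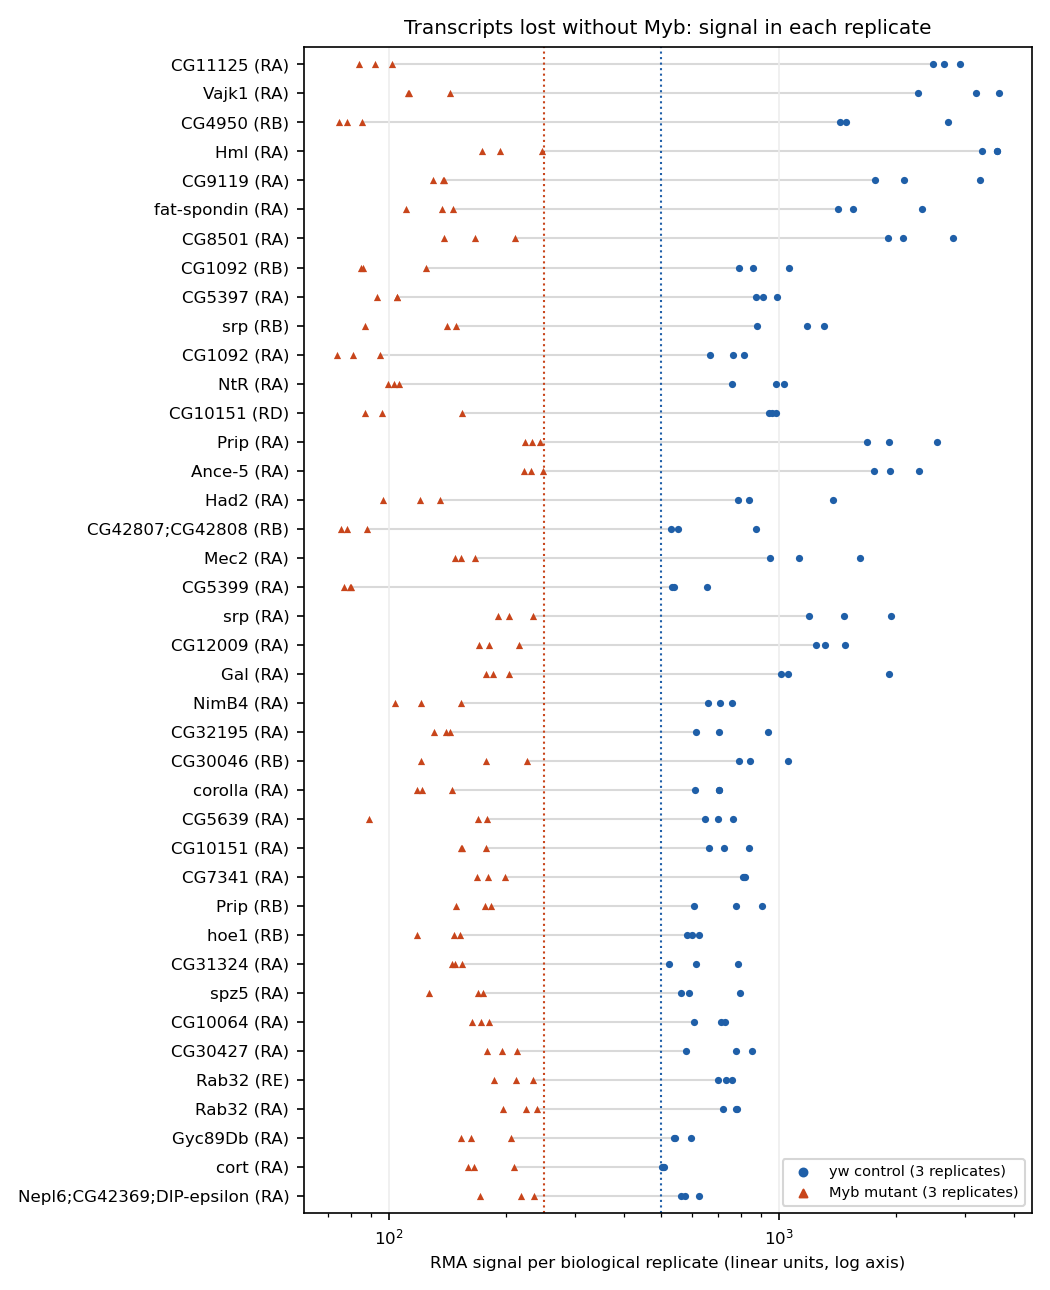
RMA signal of each of the 40 transcripts (rows, with the transcript form in brackets) in the 3 yw control replicates (blue circles) and the 3 Myb mutant replicates (red triangles), on a log axis. The dotted lines mark the levels of 500 and 250 units that chose the transcripts, and rows run from the log2 difference of -4.85 in CG11125 to that of -1.50 in the transcript shared by Nepl6, CG42369 and DIP-epsilon.

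**Figure D2:**
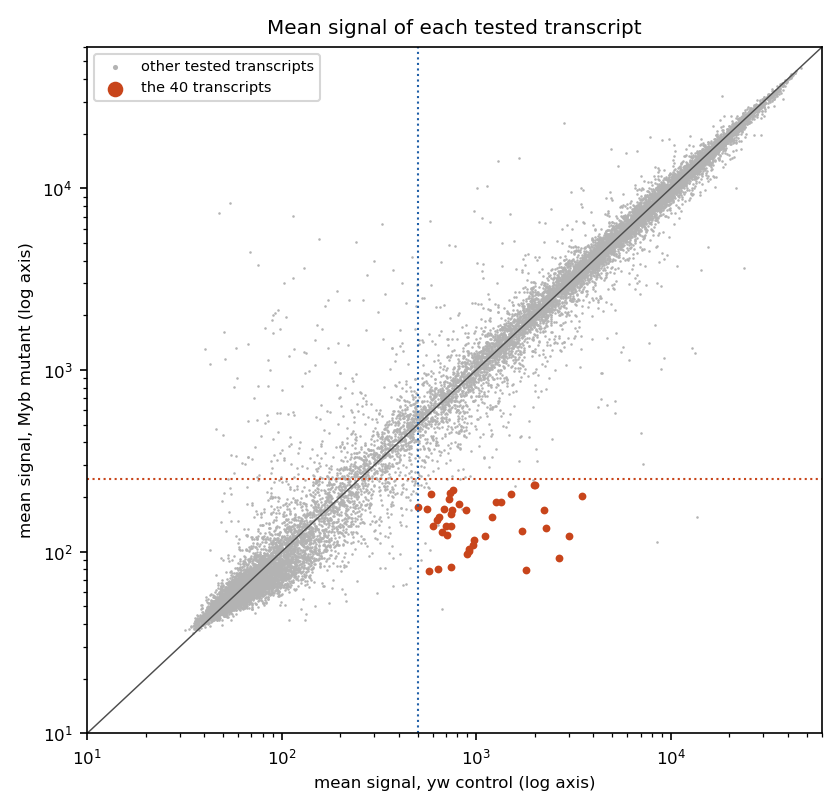
Mean signal in the control (horizontal) and in the mutant (vertical) for each of 16637 tested transcripts, both on log axes, with the 40 transcripts as large red points and equal signal on the diagonal. The 40 fill the box to the right of 500 and below 250 units, and the grey points inside that box include transcripts that were set aside or that missed a level in at least 1 replicate.

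Genes known from blood cells form one group among the 40. *Hml* (FBtr0075753) encodes hemolectin, a large clotting protein made by plasmatocytes and widely used to mark them. It measured 3311, 3632 and 3617 units in control replicates 1 to 3 and 193, 173 and 247 in mutant replicates 1 to 3. The control replicates lay close together (11.78 ± 0.08), the mutant ones were more spread (7.66 ± 0.26), and the difference was -4.12.

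*srp* encodes Serpent, the GATA factor that specifies blood cells and fat body in the embryo, and both of its transcripts met the levels. The RB form (FBtr0083216) measured 881, 1180 and 1308 in the control and 141, 86.8 and 149 in the mutant, a difference of -3.18. For the RA form (FBtr0083215) the signals were 1194, 1472 and 1937 against 204, 191 and 234, a difference of -2.85. Both forms were lowest in replicate 1 of the control and in replicate 2 of the mutant. Transcripts of 1 gene share sequence, so these are not independent measurements.

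*NimB4* (FBtr0080617) encodes a secreted protein of the Nimrod family, which serves the engulfment of bacteria and dying cells. Its signals were 659, 705 and 761 in the control and 121, 104 and 153 in the mutant, a difference of -2.51. In RNA from whole discs, fewer cells of a type and less RNA per cell cannot be told apart, and this holds for every gene here.

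Other markers of blood cells were read off the fit across all transcripts (limma, Benjamini-Hochberg adjusted over the 16637), in which a transcript was called at an adjusted p under 0.001 with at least 500 units in 1 replicate. Of 35 listed plasmatocyte and general blood cell genes, 18 had an identified transcript. Beside *Hml*, *srp* and *NimB4*, 15 could therefore be tested, and 6 were called lower and 0 higher. Among all tested transcripts 0.619% were called lower and 0.787% higher. At an adjusted p under 0.05 with the same signal minimum, 11 were lower and 0 higher, against 2.98% and 3.43% of all tested transcripts. All 15 had a lower mutant mean, with a median log2 difference of -1.06. Gene names were to hand only for transcripts with the lowest p-values of the study, so unidentified markers are mostly ones with a weaker difference, and named transcripts are called more often than all. Of the 1999 named transcripts 5.15% were called lower and 6.55% higher at 0.001, and 24.7% and 28.4% at 0.05. These shares are the closer background for every list below.

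Most of the called markers kept more than 250 units in the mutant. *NimC1*, a phagocytosis receptor of plasmatocytes, measured 4752, 5425 and 5321 in the control and 750, 549 and 736 in the mutant, a change of -2.94 (SE 0.14, adjusted p = 8.56e-05). *Pxn*, the matrix enzyme peroxidasin, had 12616, 13021 and 14218 against 1505, 1153 and 1083 units, a change of -3.43 (SE 0.13, adjusted p = 4.22e-05). *Sr-CI*, a scavenger receptor, had 8998, 9593 and 8354 against 1125, 975 and 936 units (-3.15, SE 0.10, adjusted p = 1.25e-05). These genes missed the rule through their mutant level, while their changes were as large as those of many of the 40. *Glt* (glutactin, a secreted matrix protein) behaved alike, at 11718, 12266 and 14966 against 1365, 1107 and 1553 (-3.28, SE 0.15, adjusted p = 8.56e-05).

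A pair of markers missed the rule through their control level instead. *eater*, another phagocytosis receptor, measured 338, 435 and 569 in the control and 62.0, 66.2 and 72.1 in the mutant (-2.71, SE 0.19, adjusted p = 0.000406). *lectin-24Db*, a C-type lectin, had 466, 536 and 660 against 105, 115 and 117 units (-2.29, SE 0.13, adjusted p = 0.000199). In both the control was lowest in replicate 1 and highest in replicate 3, the order also seen in both *srp* forms.

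Other listed markers fell less than those called. The collagen IV chains *Col4a1* and *vkg* changed by -0.51 (adjusted p = 0.00927) and -0.59 (adjusted p = 0.022), and *Ppn* (papilin) by -0.49 (adjusted p = 0.00894). *Tig* (tiggrin, an integrin ligand) changed by -0.78 (adjusted p = 0.00383) and *zfh1*, a zinc finger factor, by -0.84 (adjusted p = 0.0408). *Rac2*, a GTPase of blood cell migration, did not pass even the looser threshold (-0.20, adjusted p = 0.106). *NimA*, *NimB1* and *He* were under 500 units in all replicates and so could not be called at either threshold, with adjusted p of 0.0281, 0.0408 and 0.00669. The summed signal of the 15 tested markers was 104628 to 111883 in the control and 50741 to 54592 in the mutant. Bright genes that changed little weigh heavily in it, such as *Col4a1* (means of 20753 and 14620) and *Rac2* (16562 and 14411).

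Crystal cell genes were measured in the same way. *PPO1* and *PPO2*, the prophenoloxidases of crystal cells, met the levels of the rule and are set aside from the 40. They differed by -6.23 and -6.46, a description that carries no test because the levels are this contrast. *peb*, the zinc finger factor Hindsight, measured 1089, 1271 and 1131 against 389, 315 and 202, a change of -1.99 (SE 0.23, adjusted p = 0.00408), smaller than that of most of the 40, and passed only the looser threshold. Of 6 listed crystal cell genes 3 had an identified transcript, and the regulator *lz* was not among them. The summed signal was 19504 to 28222 in the control, mostly from *PPO1* and *PPO2*, and 415 to 674 in the mutant. Among lamellocyte markers, *PPO3* was higher in the mutant (604, 709 and 599 in the control, 1247, 1237 and 1132 in the mutant, 0.92, SE 0.09, adjusted p = 0.00187) and was not called at 0.001. The other identified lamellocyte genes, *msn*, a kinase, and *betaTub60D*, a tubulin, had lower mutant means that did not pass 0.05 (-0.16, adjusted p = 0.156, and -0.50, adjusted p = 0.0604).

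The counts of called markers depended on the fit. Same-numbered replicates varied together. With the replicate number as a block, 2 of the 15 plasmatocyte markers (*Sr-CI* and *Glt*) were called. In this fit *PPO1* and *PPO2* also passed, but they met the levels of the rule, so their calls are no test. In that fit 0.108% of all tested transcripts were called lower and 0.258% higher, and 0.9% and 2.15% of named transcripts. The block's adjusted p was 0.00213 for *Pxn*, 0.00264 for *NimC1*, 0.00229 for *eater* and 0.00197 for *lectin-24Db*. Both lists together, with *PPO1* and *PPO2* counted in, had 8 genes called, 4 without mutant replicate 1 and 5 without control replicate 3. At an adjusted p under 0.05 the count was 14, and 14 with the block, with which 2.7% of all tested transcripts were lower. Of named transcripts 24.7% were lower at that threshold without the block.

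**Figure D3:**
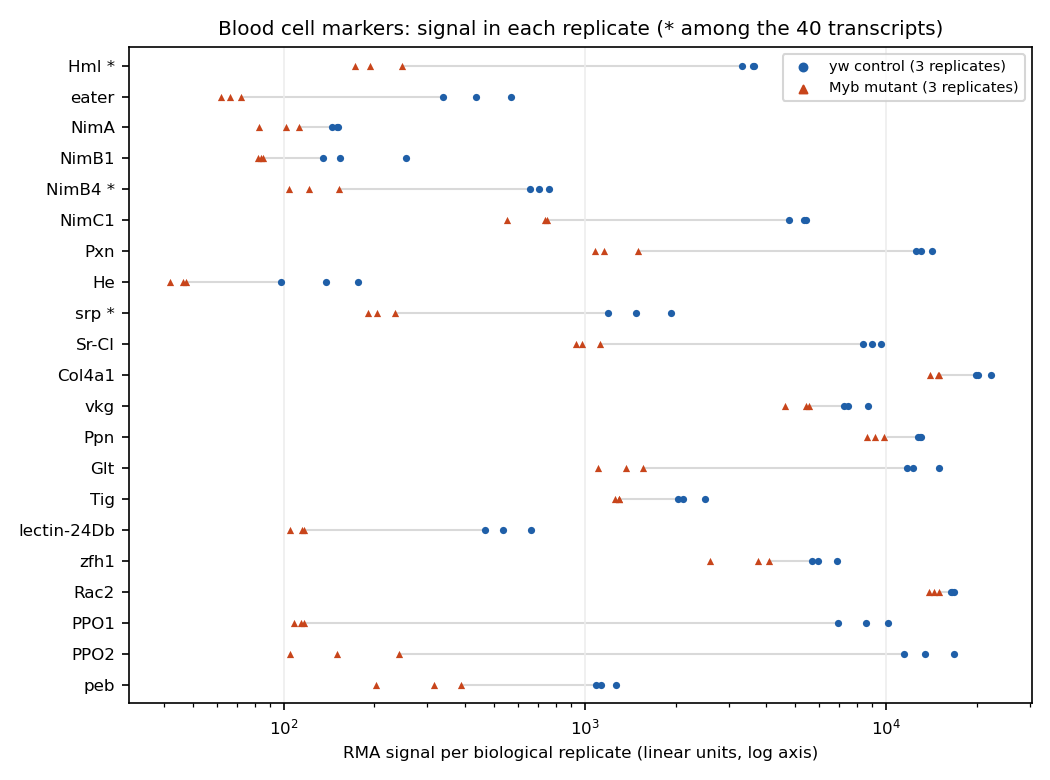
RMA signal of each identified plasmatocyte, general blood cell and crystal cell marker in the 3 control replicates (blue circles) and the 3 mutant replicates (red triangles), on a log axis, with the genes among the 40 marked by an asterisk. Mutant and control replicates do not overlap in any row, and the widest separation is in PPO1 and PPO2. The rule excludes overlap in the rows with an asterisk, and its levels do so in PPO1 and PPO2, which met them. Among all tested transcripts 14.5% had all mutant replicates below all controls.

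Markers of another tissue moved the other way. Fat body is the larval organ of storage and protein secretion and lies free in the body cavity. All 6 identified fat body genes of 9 listed were higher in the mutant at an adjusted p under 0.05, and 0 were called at 0.001. At 0.05 with the signal minimum, 3.43% of all tested transcripts and 28.4% of named transcripts were higher. *Lsp1gamma*, a larval serum protein, measured 1435, 1966 and 768 in the control and 14320, 9498 and 21172 in the mutant (3.46, SE 0.42, adjusted p = 0.00458). The other 5 genes (*Lsp1alpha*, *Lsp1beta*, *Lsp2*, *Fbp2* and *apolpp*) rose by 2.36 to 3.31, with adjusted p of 0.00585 to 0.0184. With the replicate block 3 of the 6 passed 0.05 (*Lsp1beta*, *Lsp1gamma* and *Lsp2*), as did 2.95% of all tested transcripts in that direction. Their summed signal was 4414 to 12132 in the control and 46945 to 93269 in the mutant, lowest in control replicate 3 and highest in mutant replicate 3. Its part in the levels of the 40, among them the fat body factor *srp*, was not tested.

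Other tissues of the disc gave few values. Of 6 myoblast markers 4 were identified, and 3 were lower at an adjusted p under 0.05 (*Him*, *zfh1* and *ct*). Their changes were -0.86, -0.84 and -0.49, and 0 were called at 0.001. The *zfh1* transcript is the one already counted among the plasmatocyte and general blood cell markers. At 0.05 with the signal minimum, 2.98% of all tested transcripts and 24.7% of named transcripts were lower. The summed myoblast signal was 34478 to 39030 in the control and 24958 to 30360 in the mutant. Among 11 tracheal markers 2 were identified. *btl*, the FGF receptor of tracheal cells, measured 559, 580 and 565 against 268, 216 and 205 (-1.32, SE 0.11, adjusted p = 0.000904, and 0.00895 with the block), whereas *Gasp*, a chitin-binding protein, changed by 0.26 (adjusted p = 0.0881). Of 21 markers of the wing disc epithelium only *eyg*, a regulator of the thorax, was identified (8807, 10009 and 9682 in the control, 7832, 8322 and 7787 in the mutant), so the tissue label could hardly be checked. The part of these tissues in the levels of the 40 was not tested.

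Genes for secreted and extracellular proteins made up a second group. *Vajk1* (FBtr0080560) belongs to a small family of cuticle proteins and had the second largest fold. It measured 2273, 3668 and 3196 in the control and 144, 112 and 113 in the mutant, a difference of -4.61. The control replicates spanned a wide range (SD 0.36), with replicate 1 the lowest.

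The other members of the Vajk family did not follow. *Vajk2* rose from 9628, 9779 and 9943 units in the control to 17348, 19863 and 19301 in the mutant (0.94, SE 0.07, adjusted p = 0.000614). *Vajk3* rose from 5088, 5746 and 5258 to 12316, 14508 and 13188 (1.31, SE 0.09, adjusted p = 0.000348). Both lost the call at 0.001 with the replicate block (adjusted p = 0.00624 and 0.00224). *Vajk4* was lower, at 1236, 979 and 867 against 646, 572 and 418 (-0.92, SE 0.20, adjusted p = 0.0412, and 0.00984 with the block). Of 3 tested relatives of *Vajk1*, 2 were thus called higher and 0 lower at 0.001.

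**Figure D4:**
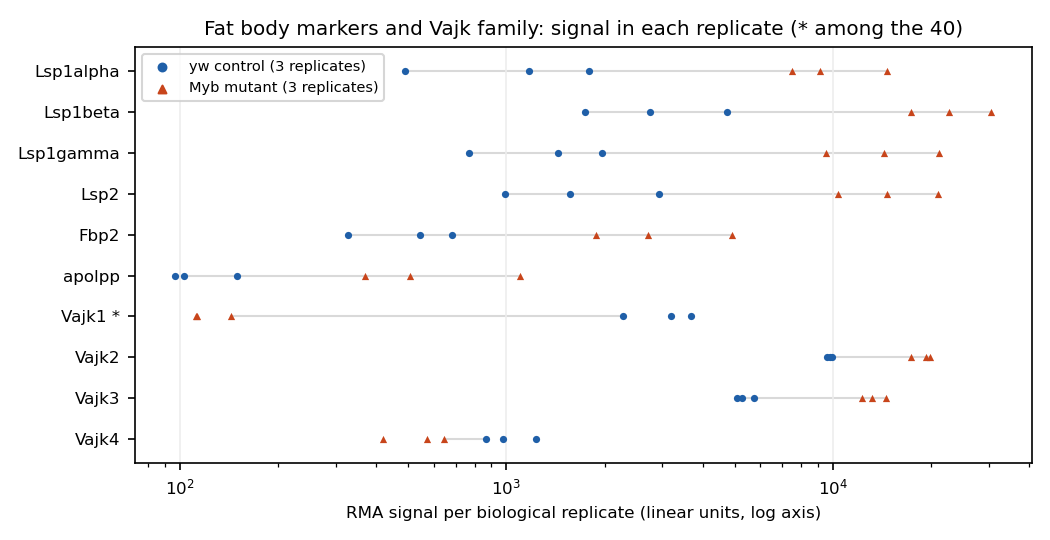
RMA signal of the 6 identified fat body markers and the 4 Vajk family genes in the 3 control replicates (blue circles) and the 3 mutant replicates (red triangles), on a log axis, with Vajk1, the gene among the 40, marked by an asterisk. The fat body genes and Vajk2 and Vajk3 lie higher in every mutant replicate, Vajk1 and Vajk4 lower. The rule excludes overlap in Vajk1. Among all tested transcripts 14.6% had all mutant replicates above all controls, and 14.5% had them below.

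*fat-spondin* (FBtr0086975), a secreted protein with a spondin domain, measured 1418, 1547 and 2330 in the control and 137, 111 and 146 in the mutant, a difference of -3.72. *Ance-5* (FBtr0072420), of the angiotensin-converting enzyme family of peptidases, had 1754, 1928 and 2291 units against 249, 231 and 222, a difference of -3.08. Its highest mutant replicate was the nearest of all 40 to the limit of 250. Its relative *Ance-4* was dim, at 62.1, 61.9 and 55.7 in the control and 150, 88.0 and 241 in the mutant (1.30, SE 0.34, adjusted p = 0.0787). *Gal* (FBtr0079230), a beta-galactosidase, had 1013, 1054 and 1921 against 203, 185 and 178 units, a difference of -2.76. As in *fat-spondin*, control replicate 3 stood above both others. *spz5* (FBtr0073011), a Spätzle-family ligand, had 589, 794 and 563 against 175, 169 and 127 units, a difference of -2.04.

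Channels and membrane proteins were a further group. *Prip*, an aquaporin, was represented by 2 transcripts. The RA form (FBtr0088137) measured 1679, 1914 and 2540 in the control and 233, 223 and 245 in the mutant, a difference of -3.11, and the RB form (FBtr0088136) had 775, 606 and 904 against 183, 149 and 177, a difference of -2.15. Control replicate 3 was highest for both forms. *Drip*, the other identified aquaporin of 7 listed, was higher in every mutant replicate (5558, 5591 and 6112 against 6607, 6933 and 7141) by 0.26, which missed the threshold (SE 0.07, adjusted p = 0.0784). *NtR* (FBtr0071762), of the ligand-gated ion channel family, had 757, 1032 and 982 against 106, 103 and 99.4 units, a difference of -3.15. *Mec2* (FBtr0074669), related to stomatins and to MEC-2 of *Caenorhabditis elegans*, had 948, 1130 and 1612 against 153, 148 and 166 units, a difference of -2.95. Both had tight mutant replicates (SD 0.05 and 0.08) and wider control ones (SD 0.24 and 0.39).

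Enzymes and signalling proteins came next. *Had2* (FBtr0087499), a hydroxyacyl-CoA dehydrogenase of fatty acid breakdown, measured 839, 788 and 1380 in the control and 120, 96.5 and 135 in the mutant, a difference of -3.07. *Gyc89Db* (FBtr0083294), an atypical soluble guanylyl cyclase of the kind that senses oxygen, had 594, 540 and 542 against 206, 153 and 163 units, a difference of -1.70. The cyclase beside it in the genome, *Gyc89Da*, was lower in the mutant as well, at 397, 311 and 362 against 150, 128 and 135 (-1.37, SE 0.11, adjusted p = 0.00083). It stayed under 500 units in all replicates and was therefore not called. Probes for such close relatives may cross-hybridize.

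*Rab32*, known as *lightoid*, encodes a GTPase of pigment granules and other lysosome-related organelles, and it supplied 2 of the 40 transcripts. The RA form (FBtr0089930) measured 782, 721 and 779 against 225, 196 and 240, and the RE form (FBtr0089932) 759, 733 and 700 against 212, 186 and 234. Their differences, -1.79 and -1.80, were near the smallest of the set. Identified transcripts of the same gene that the rule did not choose can be tested. The RD form had 773, 722 and 767 against 223, 252 and 313 units (-1.53, SE 0.13, adjusted p = 0.000904), and the RB form had 536, 456 and 569 against 269, 228 and 204 (-1.16, SE 0.13, adjusted p = 0.0036). RD was called, but not with the replicate block (adjusted p = 0.00744), nor without control replicate 1, 2 or 3 or mutant replicate 1 or 2. The 4 transcripts share sequence with those of the set, so they are not independent of it. The remaining pair, forms RB and RC of *CG30427*, was dim and changed by -1.36 (adjusted p = 0.00175) and -0.91 (adjusted p = 0.0207).

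A pair of meiosis genes appeared with differences smaller than the median of the set. No list of meiosis genes was tested, so the pair shows no trend of such genes. Outside the set, the meiosis genes *hdm* and *vilya*, named after their values were seen, were higher in the mutant, by 4.37 and 2.54 on the log2 scale. The mean signal of *hdm* was 67.45 in the control and 1397 in the mutant. That of *vilya* was 58.15 and 337.6, under 500 units in both. *corolla* (FBtr0074485), a component of the synaptonemal complex that holds paired chromosomes together in the ovary, measured 609, 704 and 703 in the control and 118, 122 and 145 in the mutant, a difference of -2.39. *cort* (FBtr0079320), which activates the anaphase-promoting complex in female meiosis and is a relative of Cdc20, had 501, 509 and 506 against 160, 165 and 210 units, a difference of -1.51. Its lowest control replicate was the closest of the 40 to the limit of 500. Of 72 genes in the study's own list of cell cycle genes, 1 (*cort*) belonged to the set, and that list was partly chosen on these arrays.

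Genes known by a CG number alone were 16 of the 33 genes named singly, and they include the transcript with the largest fold. *CG11125* (FBtr0088974) measured 2647, 2916 and 2479 in the control and 92.4, 83.9 and 102 in the mutant, a difference of -4.85 or 28.9-fold. *CG4950* (FBtr0290260) had 1486, 1434 and 2716 against 85.3, 78.0 and 74.5 units (-4.50). *CG9119* (FBtr0072635) had 1760, 3274 and 2089 against 138, 139 and 130 units (-4.08). In *CG4950* control replicate 3 stood apart from the others and in *CG9119* control replicate 2 did, while the mutant replicates of both lay close together.

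*CG8501* (FBtr0087915) followed, with 2079, 1903 and 2804 units in the control and 166, 139 and 211 in the mutant (-3.72). For *CG5397* (FBtr0077920) the signals were 874, 989 and 913 against 105, 105 and 93.6 (-3.19). Both transcripts of *CG1092* and both of *CG10151* met the levels. The *CG1092* forms differed by -3.21 and -3.17, whereas the *CG10151* forms differed by -3.15 (RD) and -2.20 (RA). In *CG5399* the mutant replicates measured 76.7, 79.9 and 79.7 against 538, 532 and 656 (-2.86). The other CG genes (*CG12009*, *CG32195*, *CG30046*, *CG5639*, *CG7341*, *CG31324*, *CG10064* and *CG30427*) differed by -2.84 to -1.90. *CG5639* had the largest spread among mutant replicates (SD 0.56), through replicate 3 (179, 169 and 89.1 units). The rest were *hoe1* (FBtr0077395), which differed by -2.12, and the transcripts whose names join several genes, *CG42807;CG42808* (-2.98) and *Nepl6;CG42369;DIP-epsilon* (-1.50).

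The spread among replicates was not the same in the genotypes. Over the 40 the median SD among control replicates was 0.206, with a range of 0.0087 (*CG7341*) to 0.52 (*CG4950* and *Gal*). The 3602 transcripts whose mean control signal fell in the same range had a median of 0.10. Among mutant replicates the median was 0.157, against 0.15 in 2287 transcripts of the same mutant signal. Arrays of 1 biological replicate differed by a median SD of 0.0619 in the control and 0.156 in the mutant over the 40. The first SDs are of means over arrays and these of single arrays, so they are not on the same footing.

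Control replicate 3 was the highest for 20 of the 40 transcripts, replicate 2 for 14 and replicate 1 for 6. As a share, 50% were highest in replicate 3, against 34.2% of transcripts in the same signal range. It exceeded both other controls by over 1.5-fold in 5 transcripts, namely *CG4950* (1.83-fold), *Gal* (1.82), *Had2* (1.64), *CG42807;CG42808* (1.59) and *fat-spondin* (1.51). Control replicate 2 did so in *CG9119* (1.57) and control replicate 1 in 0. Among mutant replicates, replicate 3 was the highest for 21 transcripts, replicate 1 for 17 and replicate 2 for 2. The share highest in mutant replicate 2 was 5%, against 24.6% of transcripts in the same range. For mutant replicate 3 it was 52.5%, against 26.7%. The transcripts of the set share their RNA samples, so these counts are no test. Control replicate 3, most often the highest of the controls, had their lowest summed signal of fat body markers (4414). Among the mutants the reverse held: replicate 2, seldom the highest, had the lowest sum (46945) and replicate 3 the highest (93269). The part of that signal in these counts was not tested.

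**Figure D5:**
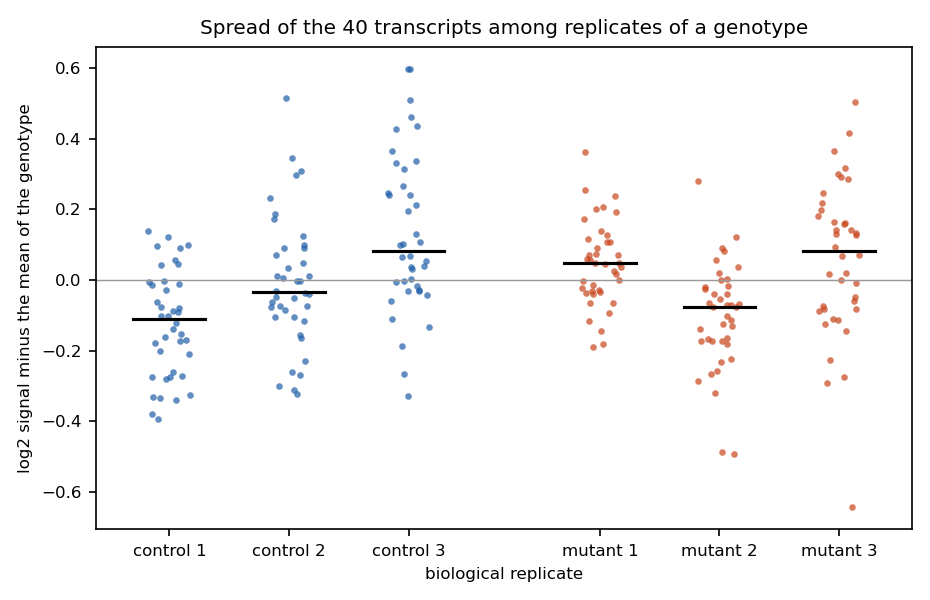
Log2 signal of each of the 40 transcripts in each biological replicate minus the mean of its genotype, with the median of the 40 as a black bar and points spread sideways for visibility. The medians are -0.11, -0.03 and 0.08 in control replicates 1 to 3 and 0.05, -0.08 and 0.08 in mutant replicates 1 to 3.

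Near the levels the border of the set was gradual. On the control side *cort*, *CG31324* (lowest control replicate 523), *CG42807;CG42808* (529), *CG5399* (532) and *Gyc89Db* (540) lay just inside. Just outside were *Ndae1*, an anion exchanger (482, 649 and 822 against 171, 130 and 126), *mthl2*, a G-protein-coupled receptor (471, 558 and 738 against 102, 96.4 and 108), *lectin-24Db*, *CG5888* and *ringer*. On the mutant side *Ance-5*, *Hml* (247), *Prip* RA (245), *Rab32* RA (240) and *Nepl6;CG42369;DIP-epsilon* (236) were just inside. Beyond that limit came *CG17646* (highest mutant replicate 255), *btl* (268), *Hr3* (293), *CG8046* (293) and *GlcAT-P* (298). *Hr3*, a nuclear receptor of the ecdysone response, was uneven in the mutant (227, 293 and 75.7 units, against 1015, 809 and 736 in the control). *GlcAT-P*, a glucuronyltransferase, measured 1628, 1764 and 2636 against 298, 237 and 216, a difference of -2.99 that exceeds the median of the set.

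Some genes of other listed families were too dim to be called although their adjusted p was under 0.001. *LManI*, a lysosomal mannosidase, measured 278, 327 and 324 against 60.6, 55.4 and 63.2 (-2.37, SE 0.09, adjusted p = 4.03e-05). *lectin-28C* had 306, 378 and 450 against 57.8, 57.3 and 81.5 units (-2.53, SE 0.19, adjusted p = 0.000613). *Rpt3R*, a proteasome ATPase of the male germline, had 332, 288 and 339 against 79.7, 76.2 and 90.2 (-1.96, SE 0.10, adjusted p = 0.000115). Their kin did not all fall. *LManII* was lower by less (-0.98, adjusted p = 0.00345), the lectins *lectin-46Ca* and *lectin-46Cb* were higher (0.86 and 0.78, adjusted p = 0.0152 and 0.0115), and *Rpt6R* rose from 49.3, 48.0 and 54.0 to 1594, 1614 and 1648 units (5.01, adjusted p = 1.11e-06). Over the 28 identified genes of all the families and of the lamellocyte, tracheal, fat body, myoblast and epithelial lists, without *zfh1* and *lectin-24Db*, 4 were called (*btl*, *Vajk2*, *Vajk3* and *Rpt6R*), and 1 with the replicate block (*Rpt6R*), where 1.41% and 0.367% of all tested transcripts and 11.7% and 3.05% of named transcripts were called. At an adjusted p under 0.05 with the signal minimum there were 17, and 14 with the block, against 6.41% and 5.65% of all tested transcripts. Of the named transcripts 53.1% passed that threshold without the block, so the 17 of 28 lie near the share of named transcripts.

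In the genome few of the genes were neighbours, by the gene order of the RefSeq annotation (Release 6). Of the 40 transcripts 15 (37.5%) were on 2R, against 20.2% of named transcripts, and 2 (5%) on the X, against 16.6%. These are counts of transcripts and not of genes, and *Prip*, *Rab32* and *CG10151* each gave 2 of those on 2R. The arms 2L, 3L and 3R held 7, 8 and 8. The 33 genes named singly had 66 neighbouring positions, and at 2 of these the neighbour was also in the set. These belong to 1 pair, *CG7341* (812, 821 and 813 against 180, 168 and 199) and *CG32195* (701, 940 and 615 against 144, 131 and 140). Their gene models overlap, so the signals may not be separate. *Vajk1* and *NimB4* lay 8 genes apart and *Ance-5* and *CG30427* lay 6 apart.

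Among other neighbours 15 had an identified transcript, and 1 was called lower and 0 higher, against 0.619% and 0.787% of all tested and 5.15% and 6.55% of named transcripts. The called one was *Nse1*, a subunit of the Smc5/6 complex of DNA repair, beside *cort*. It measured 1423, 1427 and 1539 in the control and 461, 508 and 592 in the mutant (-1.50, SE 0.10, adjusted p = 0.000402, and 0.0027 with the block, so that the call was lost). At an adjusted p under 0.05 with the signal minimum, 4 neighbours were lower and 1 was higher, against 24.7% and 28.4% of named transcripts. Neighbours that had no identified transcript were not analysed here.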

How the data were processed

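RNA of 6 biological replicates was measured on 23 one-colour arrays (Cy3, NimbleGen). The deposited values are signal intensity in linear units: the authors corrected the background, normalized by quantiles and summarized probes by median polish (RMA in ArrayStar). Array medians were 996 to 1060 units, and the 3 biological replicates per genotype limit the precision. Of 21051 transcripts, 4414 (21%) held the same value (14.158) on every array and were not tested. There were 0 unused columns of per-sample values. The part of a supplementary sheet that was read named 1999 transcripts (12% of those tested), those with the study's lowest p-values. The sheet served for names alone. Its own fold changes and p-values were not used.

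Log2 signals were averaged per biological replicate and fitted with limma 3.58.1 (lmFit, eBayes, two-sided) in R 4.3.3 over 16637 transcripts, with Benjamini-Hochberg adjustment. Calls needed an adjusted p under 0.001 and 500 units in 1 replicate, as in the study's methods. The script was tested on simulated data. A list's gene was represented by its transcript of highest mean signal. Members and lists were chosen with earlier results of these data known. Named were all members, other transcripts of their genes, list genes at an adjusted p under 0.05 or that define a cell type, and the 5 named transcripts nearest each side of each level. Others named after their values were seen are *AlkB*, *hdm*, *vilya*, neighbours, and list genes under 500 units or above 0.05. The control replicate with 3 arrays was taken from the sample titles. Slides and scan dates were not used here.

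Mutant and control replicates of 1 number deviated together from their group means (correlations of 0.20, 0.18 and 0.28), so the replicate block is given where it changed a call. The labels do not state what the numbers share. Alternatives were another threshold, no signal minimum, the replicate block, median centring, a second quantile normalization, all arrays with a random block (statmod 1.5.0), the first technical array, the methods' t-test, signals under 100 set to 100, other levels for the set, and each replicate left out. The t-test was run on the 6 replicate means and not on single arrays.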

Additional observations from a re-analysis of the deposited data

How the results depend on the processing

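The set of 40 kept its size with arithmetic means, median centring or a second quantile normalization. It held 36 transcripts by the first technical array of each replicate, 32 where every single array had to meet the levels, 58 at 400 and 300 units, 21 at 600 and 200 units, and 41 to 45 without 1 replicate. Of 400 log2 differences of the 40 under other settings, 5 moved by more than the replicate SD. The rule fixes their sign, so the absence of reversals shows nothing about stability.

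Calls over all tested transcripts numbered 234, of which 103 were lower. They were 1066 and 496 at an adjusted p under 0.05, and 1184 and 568 for all arrays with a random block. The methods' t-test, run on the 6 replicate means, gave 17 and 1 after adjustment, and the replicate block gave 61 and 18. Without 1 replicate they ranged from 70 to 317, and the lower calls from 24 to 139. Leaving out mutant replicate 1, 2 or 3 gave 70, 71 and 121 calls (25, 24 and 53 lower), and leaving out control replicate 1, 2 or 3 gave 106, 317 and 100 (42, 139 and 42 lower). The cause was not tested.

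The 8 blood and crystal cell markers called lower include *PPO1* and *PPO2*, which met the levels of the rule. The replicate block kept a count of 4, the random block gave 14 and the threshold of 0.05 gave 14. The methods' t-test gave 0, and leaving out 1 replicate gave 4 to 8. The count at 0.05 was repeated under the replicate block and without each replicate after seeing the data. It was 14 with the block and 11 to 14 without 1 replicate. Other transcripts of member genes gave 1 call, 2 at 0.05 or by the first technical array, and 0 with the replicate block, a second quantile normalization, the methods' t-test or signals under 100 set to 100, and 0 to 1 without 1 replicate. The 28 genes of families and other lists gave 4 calls, 17 at 0.05 (14 with the block, 12 to 18 without 1 replicate), 18 with the random block, 8 without a signal minimum, 1 with the replicate block, 1 by the methods' t-test, and 1 to 7 without 1 replicate. Leaving out mutant replicate 1, 2 or 3 gave 2, 1 and 1 of these calls, and leaving out control replicate 1, 2 or 3 gave 1, 7 and 1. Over 60 named transcripts outside the set and 15 settings, 766 of 900 results kept their side of the threshold, 73 lost it, 61 gained it and 0 changed sign. The calls went from 16 to 5 with the replicate block, with *PPO1* and *PPO2* counted in both. Low signals carry no detection flag here, so folds against dim mutant signals are uncertain.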
